A study of Rattus norvegicus with 13 samples.

Results

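Mitochondrial ribosomal proteins are encoded by nuclear genes, made in the cytosol and imported into mitochondria. There they join the ribosomal RNAs of the mitochondrial genome in a large and a small subunit. The finished mitoribosome translates the few proteins that mitochondrial DNA encodes, all of them subunits of the respiratory chain and the ATP synthase, on which the heart depends for most of its energy. The genes described here are all those named Mrpl or Mrps and a number, with an ending letter allowed, in bulk RNA counts of rat hearts. They were 76 of the 25600 names listed at 2 months and 78 of the 38600 names listed at 6 and 8 months, where Mrpl50 and Mrpl53 were listed in addition. By name 49 were Mrpl and 29 Mrps. By the place of the protein in the mammalian mitoribosome 51 belonged to the large subunit, among them Mrps30 and Mrps18a despite their names, and 26 to the small subunit. The last one, Mrps21l, is named as a copy of Mrps21 and was placed in neither. It had 0 counts in every library of 2 and 6 months and 1 count in each library of 8 months, and it failed the filter on low counts. The other 75 genes at 2 months and 77 at 6 and 8 months passed that filter, so none was kept out for a low value in one group.

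ST hearts came from rats given the vector AAV2/9-cTnT-MscL-G22S-mCherry, genotype MscL-G22S in the labels. It is an adeno-associated virus in which the cardiac troponin T promoter, active in cardiomyocytes, drives a mutant of the bacterial mechanosensitive channel MscL, and mCherry is a red fluorescent protein. WT hearts had no treatment, so that the effect of the channel and that of the virus cannot be told apart. There were 2 ST hearts at 2 months, 3 at 6 months and 3 at 8 months, and 2 WT hearts at 2 months and 3 at 6 months, each a biological replicate by its title. The labels used here give no WT heart of 8 months, no strain, and no word on whether the months are age or time after the vector, or on ultrasound before collection. Every ST library held the transgene, at 11.0 to 11.2 CPM (counts per 1 M counts of the library) at 2 months, 90.4 to 209 CPM at 6 months and 116 to 180.0 CPM at 8 months, and every WT library had 0 counts of it. The libraries held 4.70 to 11.3 M counts each, and the members took 0.205 to 0.498% of them. ST libraries of 8 months were the smallest, with 4.70 to 5.57 M counts. At 6 months ST libraries held 6.72 to 8.49 M and WT libraries 7.02 to 7.48 M counts. The part of this difference in library size in the results was not tested. A floor of 3 counts corresponds to 0.266 to 0.639 CPM, far below the level of the members named. The heart markers were abundant, as the 12 cardiomyocyte markers (11 of them listed at 2 months) summed to 120499 to 177011 CPM. At 6 months, ST replicate 2 and WT replicate 1 stood farther from the other libraries of their groups than those did from each other, with a chi-square per degree of freedom of 6.59 to 8.32 against 1.88 and 2.08. At 2 months it was 12.1 between the ST libraries and 7.68 between the WT libraries. The tables of 2 months and of later times list different names, and each time point is a table of its own. Levels at 2 months are therefore not set against later ones, and in comparisons of 8 with 6 months the time and the table cannot be told apart.

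Promoters were read from RefSeq for the rat build GRCr8, as the 250 bases before and 50 bases after the start of a gene, and 63 of the 78 genes had an entry. The members matched to RefSeq lie on 19 chromosomes. Motifs of factors known to act on nuclear genes of mitochondria were searched on both strands. NRF1 (GCGCANGCG), nuclear respiratory factor 1, was found in 12 of 63 promoters, which is 19.0%, beside 12.3% of the promoters of all genes tested and 6.3% of all promoters in the table. The ETS core of GABP (CCGGAAG) was found in 21, which is 33.3%, beside 16.7% and 9.2%. YY1 (AANATGGCG) was found in 13, which is 20.6%, beside 6.0% and 3.3%. The E-box CACGTG, a motif of another family searched for comparison, was found in 7, which is 11.1%, beside 9.1% and 6.7%. At least 1 of NRF1, ETS and YY1 was found in 36 of the 63. All 13 YY1 matches lay between 17 bases before and the 31st base from the start, counting the start as base 1. These matches describe letters and do not show that a factor was bound. The motifs do not overlap each other in the stretches shown, except that the palindrome GCGCATGCGC holds an NRF1 match on each strand.

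A few promoter stretches are shown, from 100 bases before to 50 bases after the start, 5′ to 3′ on the strand of the gene, with NRF1, ETS and YY1 matches in capitals. They were chosen to show the kinds of match among members named in the results. Mrpl17 holds NRF1 matches alone and Mrps18b NRF1 matches ahead of an ETS match. Mrpl58 and Mrps18a hold an ETS match ahead of a YY1 match at the start, and Mrpl37 a YY1 match alone. Mrps2, the gene with the largest difference at 6 months, held none of these letters in its window.
Mrpl17 (chr1:169575650-169575799, minus strand): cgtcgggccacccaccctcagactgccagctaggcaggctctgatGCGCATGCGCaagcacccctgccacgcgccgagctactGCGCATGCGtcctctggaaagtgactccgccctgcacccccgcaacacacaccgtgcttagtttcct
Mrps18b (chr20:2842906-2843055, plus strand): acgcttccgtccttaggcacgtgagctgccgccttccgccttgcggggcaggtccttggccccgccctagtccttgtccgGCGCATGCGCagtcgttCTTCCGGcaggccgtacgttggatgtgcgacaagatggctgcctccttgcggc
Mrpl58 (chr10:101145242-101145391, plus strand): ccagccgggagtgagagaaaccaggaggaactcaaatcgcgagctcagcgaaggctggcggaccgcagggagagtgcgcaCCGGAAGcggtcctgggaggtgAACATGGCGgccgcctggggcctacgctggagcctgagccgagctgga
Mrps18a (chr9:22367331-22367480, minus strand): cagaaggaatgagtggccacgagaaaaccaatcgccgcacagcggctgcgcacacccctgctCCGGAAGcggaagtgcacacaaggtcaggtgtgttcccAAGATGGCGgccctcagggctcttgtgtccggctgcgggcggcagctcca
Mrpl37 (chr5:127074918-127075067, minus strand): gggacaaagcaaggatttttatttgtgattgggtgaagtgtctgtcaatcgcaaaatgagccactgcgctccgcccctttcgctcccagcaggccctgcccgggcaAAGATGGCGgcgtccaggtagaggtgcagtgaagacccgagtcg
Mrps2 (chr3:32200977-32201126, plus strand): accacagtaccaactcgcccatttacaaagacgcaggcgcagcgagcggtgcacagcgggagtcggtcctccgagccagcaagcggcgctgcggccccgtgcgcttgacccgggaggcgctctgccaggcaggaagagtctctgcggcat

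At 2 months the genes of the mitoribosome were lower in ST than in WT hearts by a small amount in most cases, and no gene passed the test. Summed over the 76 genes, the level was 2059 and 2254 CPM in ST hearts, against 2376 and 2538 CPM in WT hearts. The sums of the groups did not overlap, and neither did those of the large and of the small subunit taken alone. Of 75 genes tested, 0 rose and 0 fell by edgeR's quasi-likelihood test with an adjusted p under 0.05, while 10 had an unadjusted p below that value and DESeq2 also called 0. Over all 12121 names tested, 2.70% were called higher and 2.10% lower. The median log2 fold change of the members was -0.20, with a median standard error (SE) of 0.157 for a single gene, beside a median of 0.00 over all names tested. There were 67 members below 0 and 8 above. ST and WT values did not overlap in 40 members that were lower in ST, which is to be read against 24.1% of all names. The subunits had close values, with medians of -0.17 for the 49 large subunit members and -0.24 for the 26 small subunit members.

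Single genes at 2 months show how near the differences were to the spread between 2 hearts. Mrps7, a small subunit protein with a bacterial counterpart, had 24.6 and 31.0 CPM in ST hearts, against 39.7 and 41.1 CPM in WT hearts. Its log2 fold change was the lowest of all members and just missed the threshold (-0.54, SE 0.152, adjusted p = 0.0503). It passed under library totals, no filter, the stricter filter, limma-voom and the replicate block. Mrps24, also of the small subunit, had 17.4 and 20.8 CPM in ST hearts, against 27.6 and 26.2 CPM in WT hearts, without overlap (-0.50, SE 0.161, adjusted p = 0.0938). Mrpl58, a peptidyl-tRNA hydrolase that is built into the large subunit and can free stalled ribosomes, had 27.9 and 31.6 CPM in ST hearts, against 37.5 and 40.6 CPM in WT hearts (-0.39, SE 0.145, adjusted p = 0.147). These 3 were lower in both ST hearts than in either WT heart. Mrps33, a small subunit protein without a bacterial counterpart, had the highest fold change, with 9.61 and 6.71 CPM in ST hearts, against 5.02 and 8.16 CPM in WT hearts, and here the groups overlapped (0.36, SE 0.273, adjusted p = 0.536). Single libraries decided how many passed: without ST replicate 2, 12 members were called lower, which is 16.0%, beside 7.25% of all names in that fit. Without ST replicate 1, 0 were, and the median was -0.13.

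**Figure D1:**
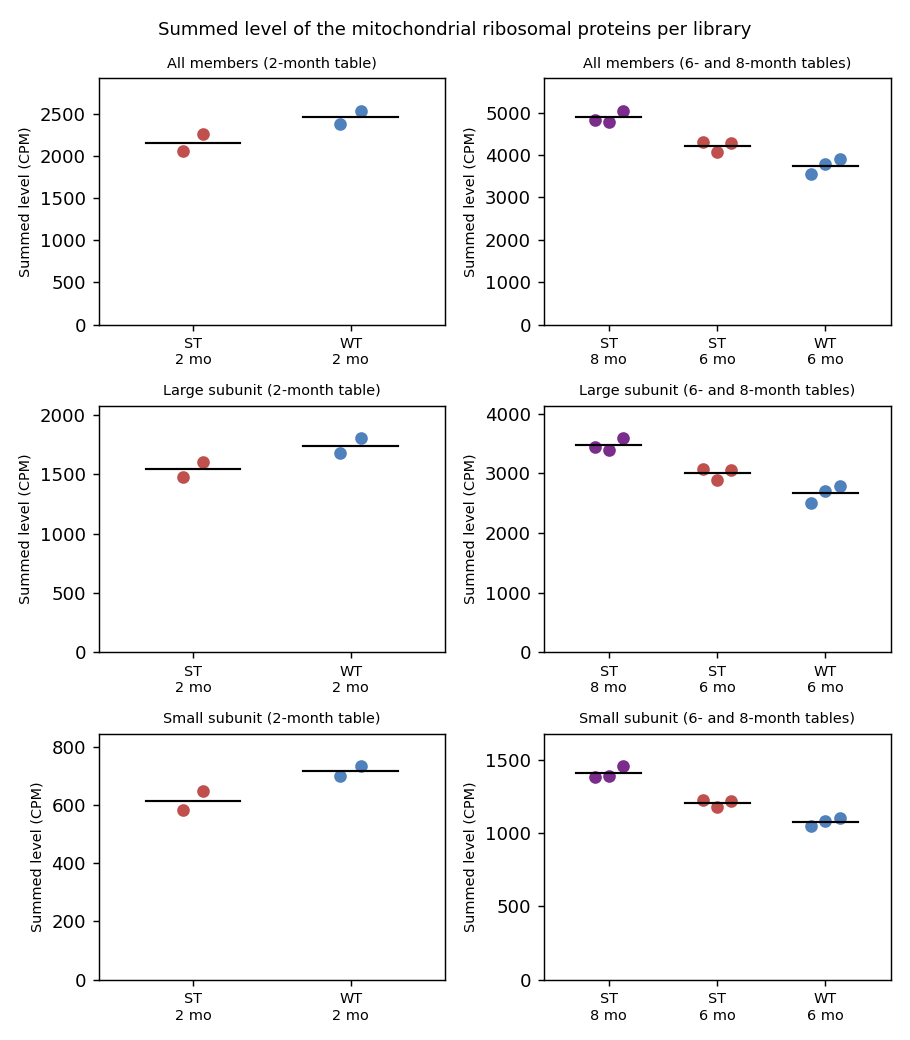
Summed level of the mitochondrial ribosomal protein genes in CPM, scaled within the 2-month table (left) and across the 6- and 8-month tables (right), for all members, the large and the small subunit. Points are libraries and lines are group means; axes start at 0. At 2 months the ST sums of all members, 2059 and 2254 CPM, lie under both WT sums, and at 6 months all 3 ST sums lie above the 3 WT sums, under those of ST hearts of 8 months.

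At 6 months the direction was the other way: 23 of 77 members rose in ST hearts and 0 fell. The summed level was 4306, 4068 and 4275 CPM in ST hearts, against 3554, 3791 and 3902 CPM in WT hearts, again without overlap. The 23 are 29.9% of the members, beside 19.9% of 13253 names called higher, and the 0 that fell stand beside 20.1% called lower. The median log2 fold change was 0.15, beside 0.00 over all names, and 65 members were above 0. ST values lay above WT values without overlap in 32 members, read against 25.2% of all names. Of 51 large subunit members 18 rose, with a median of 0.15, and of 26 small subunit members 5 rose, with a median of 0.14. Of 45 members with a counterpart in bacterial ribosomes 14 rose, and of 29 members known only from mitochondria 7 rose. Mrps18a and Mrps18b, 2 relatives of the bacterial protein bS18 that were counted apart from these, both rose. Not every member was placed in one of these classes. Of all names 2643 were called higher and 2662 lower, but 1731 higher and 3714 lower where libraries were scaled by their totals alone. That scaling moved the median of all names to -0.12 and that of the members to 0.03, with 9 members called higher and 4 lower (Mrpl2, Mrpl4, Mrpl52 and Mrpl58). The 9 are 11.7% of the members, beside 13.1% of all names called higher in that fit, so that the excess was absent there. The 4 are 5.19%, beside 28.0% called lower.

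The largest difference by far at 6 months was that of Mrps2, a small subunit protein with a bacterial counterpart, whose mutations in humans cause hearing loss with lactic acidosis. It had 51.6, 52.4 and 53.5 CPM in ST hearts, against 28.7, 23.2 and 24.7 CPM in WT hearts. All 3 ST hearts were near to each other and well above the 3 WT hearts (1.04, SE 0.0919, adjusted p = 4.49e-06), and under every alternative run the log2 fold change lay in the range 0.93 to 1.13. The span of Mrps2 overlaps that of Pierce1 in GRCr8, which had 0 CPM in both groups at 6 months. Mrps6, a small subunit protein with a bacterial counterpart, came next with 31.2, 30.6 and 38.4 CPM in ST hearts, against 21.6, 20.8 and 26.7 CPM in WT hearts (0.54, SE 0.125, adjusted p = 0.00483). Its span overlaps that of Slc5a3, a myo-inositol transporter gene on the same strand, which averaged 0.710 CPM in ST hearts and 0.263 CPM in WT hearts at 6 months. At 2 months Slc5a3 averaged 41.9 CPM in ST hearts and 26.8 CPM in WT hearts. It was itself called higher there, with a log2 fold change of 0.64 and an adjusted p of 0.0150 by edgeR. Reads that fall in both genes cannot be told apart.

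Of the large subunit, Mrpl24, a protein that starts the folding of the large ribosomal RNA in bacteria, had 69.0, 56.1 and 64.1 CPM in ST hearts, against 44.3, 42.9 and 46.1 CPM in WT hearts (0.51, SE 0.0900, adjusted p = 0.000934). Mettl25b, whose span overlaps it, moved the other way, with a log2 fold change of -0.70. Mrpl45, which holds the ribosome to the inner mitochondrial membrane, had 107, 99.0 and 105 CPM in ST hearts, against 75.2, 77.4 and 75.0 CPM in WT hearts (0.45, SE 0.0675, adjusted p = 0.000268). Both genes were higher in every ST heart than in any WT heart. Mrpl50, a protein without a bacterial counterpart, had 68.6, 57.8 and 65.6 CPM in ST hearts, against 40.8, 51.2 and 50.8 CPM in WT hearts (0.43, SE 0.105, adjusted p = 0.00689). Mrpl20, a protein that binds the large ribosomal RNA in bacteria, had 57.8, 57.7 and 63.9 CPM in ST hearts, against 39.7, 45.7 and 51.2 CPM in WT hearts (0.40, SE 0.100, adjusted p = 0.00801). Mrpl47, with a bacterial counterpart, and Mrpl37, without one, also rose, with log2 fold changes of 0.36 and 0.35 and adjusted p of 0.00778 and 0.00405 by edgeR. Ssbp3, which overlaps Mrpl37, rose too, by 0.31 (log2), so that for Mrpl37 a contribution of its neighbour's reads cannot be told apart without strand.

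The 23 members that rose had log2 fold changes of 0.23 to 1.04, which is 1.17-fold to 2.06-fold. The 54 that did not pass lay between -0.25 and 0.34, with 42 above 0. The differences were not uniform. Mrpl51, a large subunit protein without a bacterial counterpart, had 112, 115 and 118 CPM in ST hearts, against 114, 114 and 117 CPM in WT hearts, with a log2 fold change of 0.00 and an SE of 0.0635. The lowest was Mrpl2, which lies near the catalytic centre of the large subunit, with 26.1, 24.4 and 29.1 CPM in ST hearts, against 29.3, 30.1 and 35.2 CPM in WT hearts (-0.25, SE 0.107, adjusted p = 0.0886). Without ST replicate 2, 27 members were called higher, while 13 were without ST replicate 3 and 14 without ST replicate 1. DESeq2 called 14, all of them among the 23. The share of members was near that of all names in these smaller counts: 16.9% beside 15.1% without ST replicate 3, 18.2% beside 15.6% without ST replicate 1, and 18.2% beside 16.2% with DESeq2.

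**Figure D2:**
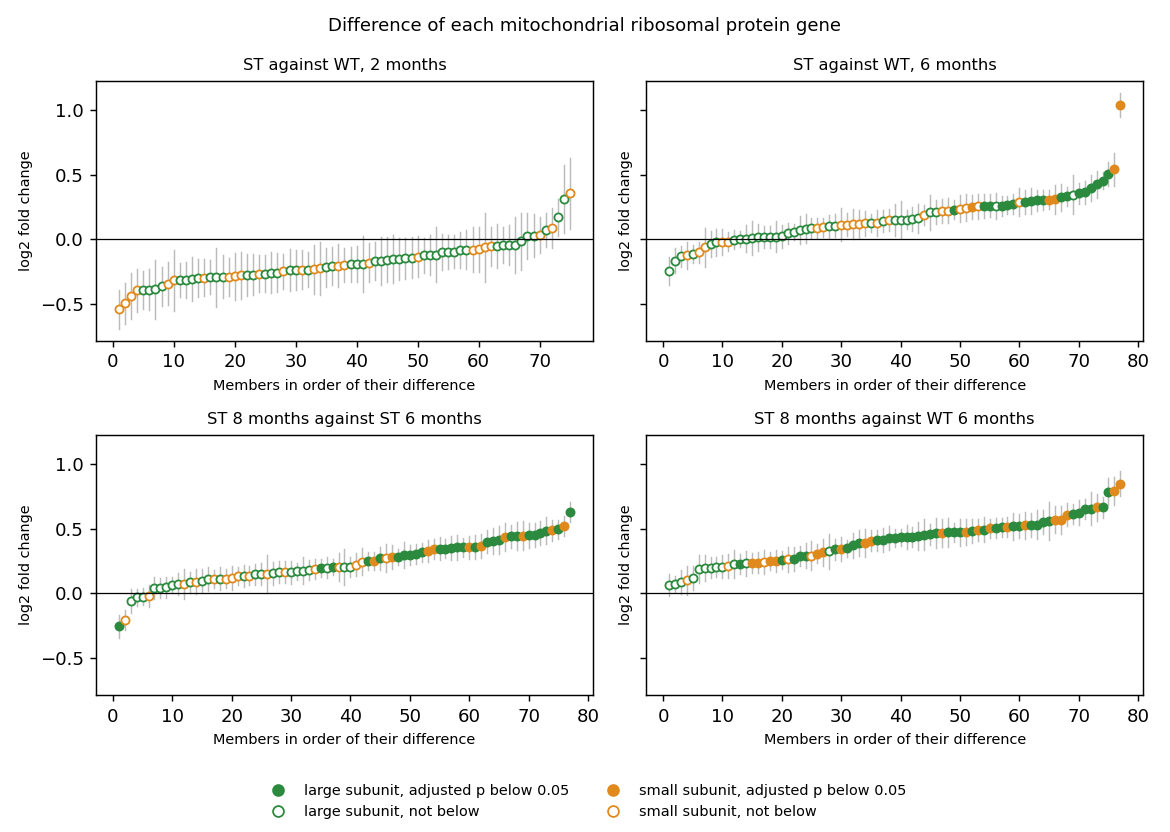
Log2 fold change of each mitochondrial ribosomal protein gene in 4 comparisons, in order of size within each, with lines of 1 SE on either side. Green points are large and orange points small subunit members, and filled points passed an adjusted p of 0.05 in edgeR's test over all names. Most points lie under 0 at 2 months with 0 filled, 23 are filled above 0 at 6 months with Mrps2 at 1.04 alone at the top, and all 77 lie above 0 in ST hearts of 8 months against WT hearts of 6 months.

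The difference between ST and WT hearts at 6 months was itself set against that at 2 months, in a fit over the 4 groups with an interaction term. Of 75 members 21 had a difference that was more positive at 6 than at 2 months, which is 28.0%, beside 10.2% of 12658 names, and 0 a more negative one, beside 12.0%. The median was 0.40 on the log2 scale, beside -0.02 over all names. Of the large subunit 13 of 49 passed and of the small subunit 8 of 26. The largest was Mrps2 (1.21, SE 0.164, adjusted p = 9.11e-05), which had 30.0 and 36.3 CPM in ST hearts of 2 months, against 35.2 and 40.0 CPM in WT hearts of 2 months. Mrpl24 (0.72, SE 0.161, adjusted p = 0.00491) and Mrpl45 (0.68, SE 0.156, adjusted p = 0.00564) followed the same course, lower without passing the test at 2 months and higher at 6 months. Mrps7 passed as well (0.63, SE 0.147, adjusted p = 0.00642), with the larger contrast at 2 months: at 6 months it had 63.0, 65.5 and 64.9 CPM in ST hearts, against 61.2, 57.6 and 63.3 CPM in WT hearts (0.09, SE 0.0724, adjusted p = 0.336). Time and table are joined in this test as in those of 8 months. Leaving out 1 library at a time gave 10 to 25 members, with 12 without either WT replicate of 2 months, 10 without ST replicate 1 of 2 months and 12 without ST replicate 3 of 6 months, and library totals alone gave 13. The 10 are 13.3% of the members, beside 7.30% of all names in that fit. Under library totals 1005 of all names were called more positive and 1893 more negative, beside 1294 and 1517.

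**Figure D3:**
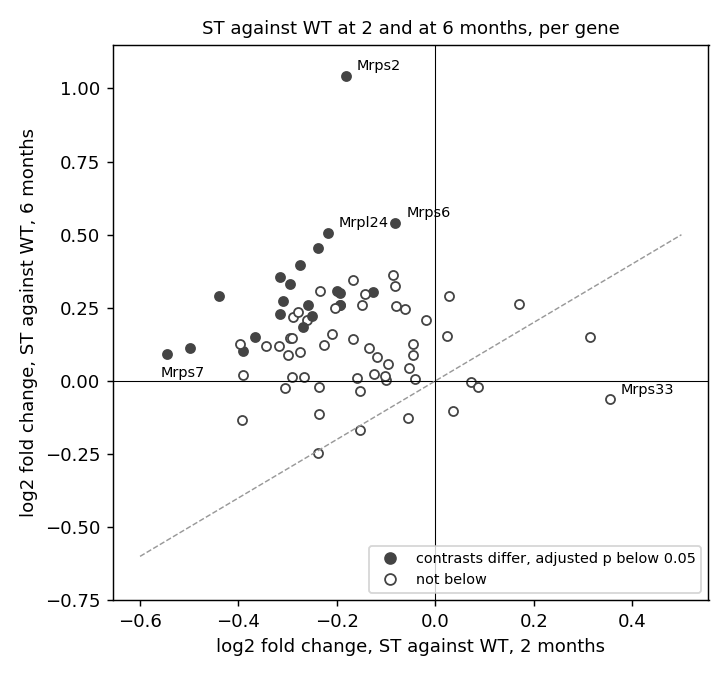
Log2 fold change of ST against WT hearts at 6 months (vertical) and at 2 months (horizontal) for the 75 members tested at both; the broken line marks equal values. Filled points are the 21 members whose 2 contrasts differed with an adjusted p under 0.05, and all of them lie above the broken line, with Mrps2 at the top.

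The mitoribosomal genes were higher in ST hearts of 8 than of 6 months in most cases, and 36 of 77 passed the test. The summed level was 4838, 4789 and 5052 CPM at 8 months, against 4306, 4068 and 4275 CPM at 6 months. The 36 are 46.8% of the members, beside 19.1% of 12931 names called higher, and 1 fell, beside 20.5% called lower. The median was 0.20, beside 0.02 over all names, with 71 members above 0, and values at 8 months lay above those at 6 months without overlap in 50 members, read against 25.9% of all names. Of the large subunit 26 of 51 rose and 1 fell, and of the small subunit 10 of 26 rose. Scaled by library totals, 46 members rose and 0 fell, and of all names 3072 were called higher and 2140 lower, beside 2464 and 2651. This comparison shares the ST hearts of 6 months with that of ST and WT hearts at 6 months.

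Mrpl58, whose promoter with an ETS and a YY1 match is shown above, had the largest difference, with 61.2, 61.4 and 63.7 CPM at 8 months, against 38.1, 41.4 and 40.5 CPM at 6 months in ST hearts (0.63, SE 0.0754, adjusted p = 3.18e-05). Mrps35, a small subunit protein without a bacterial counterpart, had 61.5, 62.0 and 69.5 CPM at 8 months, against 44.3, 46.2 and 43.6 CPM at 6 months (0.52, SE 0.0785, adjusted p = 0.0002). In both genes the groups were far apart for the spread within them. Mrpl33, a small protein of the large subunit, had 109, 120.0 and 108 CPM at 8 months, against 80.3, 74.7 and 83.5 CPM at 6 months (0.50, SE 0.0730, adjusted p = 0.000168). Mrps16, whose loss in humans causes a fatal defect of respiratory chain complexes, had 72.3, 67.6 and 79.5 CPM at 8 months, against 50.3, 51.3 and 54.5 CPM at 6 months (0.49, SE 0.0796, adjusted p = 0.000387). Mrpl39, Mrpl2, Mrpl53 and Mrpl22, all of the large subunit, completed the 8 largest, with log2 fold changes of 0.49, 0.47, 0.45 and 0.45. The gene that fell was Mrpl47 of the large subunit, with 51.3, 43.0 and 48.7 CPM at 8 months, against 61.0, 56.7 and 52.5 CPM at 6 months (-0.25, SE 0.0887, adjusted p = 0.0367). That call was lost under library totals, under DESeq2 and without any 1 of ST replicate 1 of 6 months and ST replicates 2 and 3 of 8 months. Ndufb5, whose span overlaps that of Mrpl47, rose by 0.32 (log2) in the same comparison. Mrps2 had 45.8, 43.0 and 48.2 CPM at 8 months, against 51.6, 52.4 and 53.5 CPM at 6 months, lower in every heart of 8 months but not past the threshold (-0.20, SE 0.0771, adjusted p = 0.0506).

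**Figure D4:**
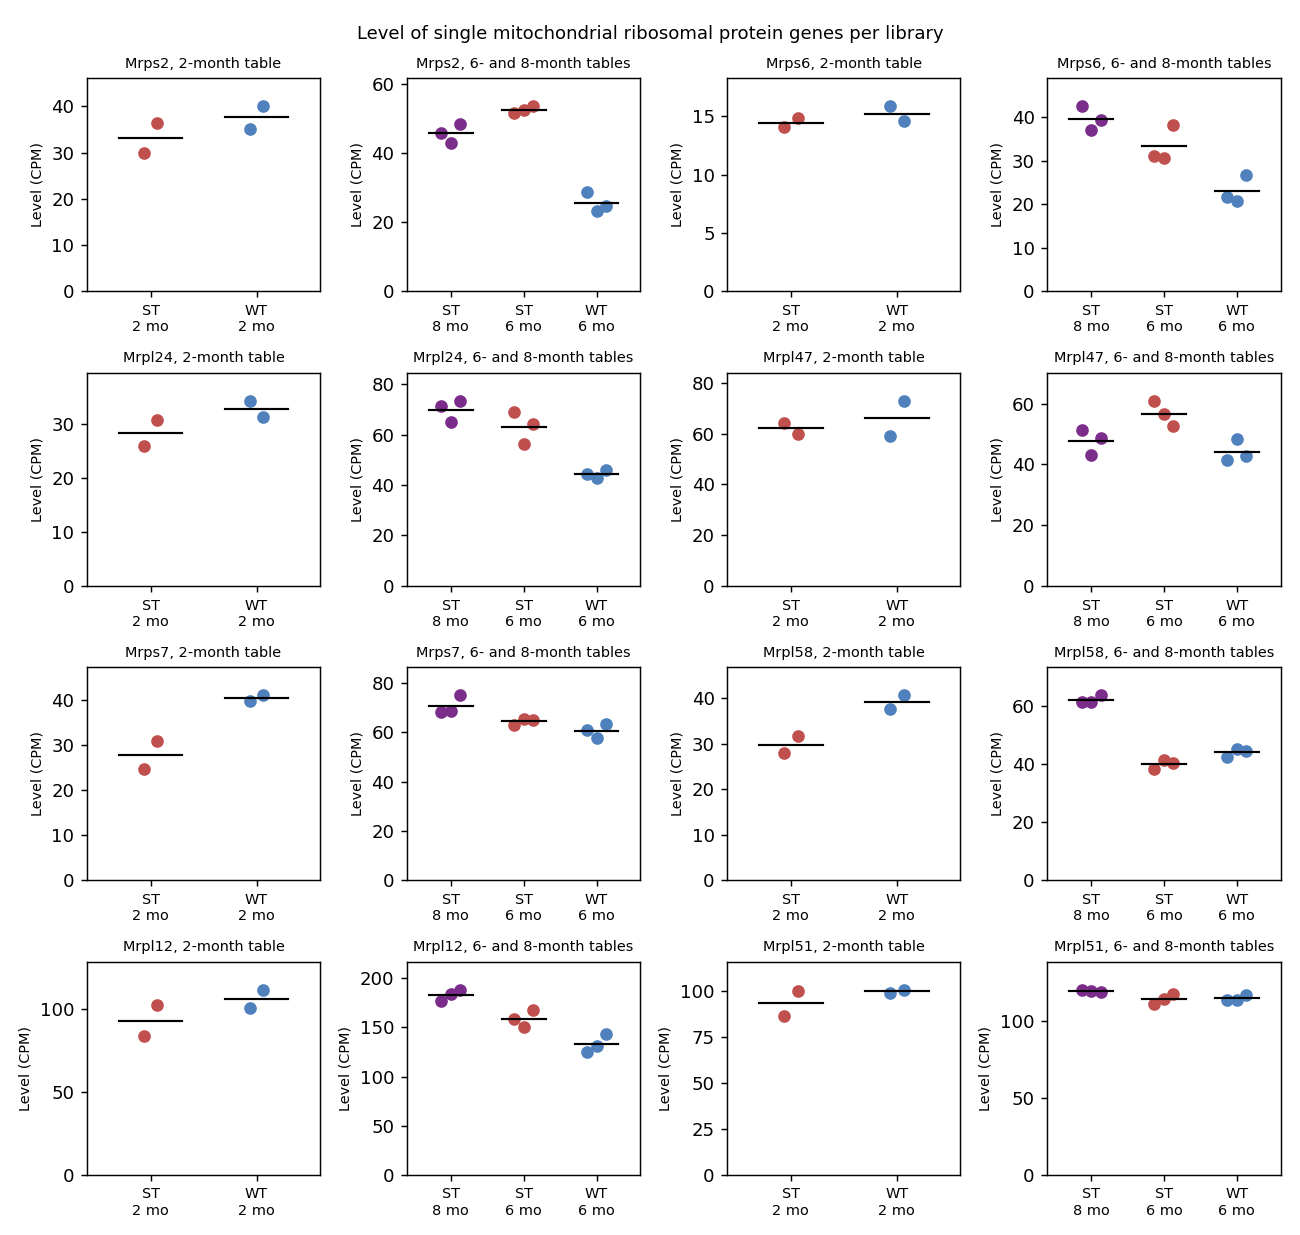
Level in CPM of 8 single genes in each library, with the 2-month table and the 6- and 8-month tables in panels of their own. Points are libraries, lines are group means and axes start at 0. Mrps2 and Mrpl24 separate ST from WT hearts at 6 months, Mrpl58 separates ST hearts of 8 months from both groups of 6 months, and Mrpl51 is close to level throughout the later tables.

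Set against WT hearts of 6 months, the nearest WT hearts in time, ST hearts of 8 months showed the widest difference. The summed level was 4838, 4789 and 5052 CPM in ST hearts of 8 months, against 3554, 3791 and 3902 CPM in WT hearts of 6 months. Of 77 members 60 rose, which is 77.9%, beside 17.8% of 13095 names called higher, and 0 fell, beside 16.1% called lower. All 77 members had a log2 fold change above 0, with a median of 0.43, beside -0.01 over all names, and 67 did not overlap, read against 22.5% of all names. By subunit, 39 of 51 large subunit members rose, with a median of 0.43, and 21 of 26 small subunit members, with a median of 0.40. The changes that passed were 1.17-fold to 1.80-fold, all below a doubling. Scaled by library totals, 53 rose and 0 fell, and of all names 1880 were called higher and 2856 lower, beside 2329 and 2112. This comparison shares its libraries with both other comparisons of these tables, and group, time and table differ together in it.

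The largest difference was again that of Mrps2, with 45.8, 43.0 and 48.2 CPM in ST hearts of 8 months, against 28.7, 23.2 and 24.7 CPM in WT hearts of 6 months (0.85, SE 0.0983, adjusted p = 7.31e-06). Mrps6 had 42.6, 37.1 and 39.5 CPM in ST hearts of 8 months, against 21.6, 20.8 and 26.7 CPM in WT hearts of 6 months (0.80, SE 0.110, adjusted p = 4.27e-05). Mrpl39 had 50.2, 41.4 and 38.9 CPM in ST hearts of 8 months, against 24.8, 26.2 and 25.0 CPM in WT hearts of 6 months (0.79, SE 0.104, adjusted p = 2.84e-05). The groups of these genes did not overlap. Mrpl24, Mrps25, Mrpl33, Mrpl13 and Mrpl41 followed, with log2 fold changes of 0.67, 0.67, 0.66, 0.66 and 0.63. The 17 members that did not pass lay between 0.06 and 0.33, the lowest being Mrpl10 with 41.5, 40.5 and 43.6 CPM in ST hearts of 8 months, against 40.1, 40.8 and 40.4 CPM in WT hearts of 6 months.

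Among members with a known part in human heart disease, Mrpl3 and Mrpl44, whose mutations cause hypertrophic cardiomyopathy in infants, had unlike values. Mrpl3 had 176, 175 and 191 CPM in ST hearts of 8 months, 191, 176 and 184 CPM in ST hearts of 6 months and 134, 160.1 and 153 CPM in WT hearts of 6 months. It rose at 6 months against WT (0.30, SE 0.0798, adjusted p = 0.0101), a call lost under library totals, and was close between ST hearts of 8 and 6 months (-0.02, SE 0.0635, adjusted p = 0.784). Mrpl44 had 36.2, 43.3 and 41.8 CPM in ST hearts of 8 months, 36.3, 36.3 and 35.8 CPM in ST hearts of 6 months and 35.0, 34.3 and 32.9 CPM in WT hearts of 6 months. Its difference at 6 months did not pass (0.09, SE 0.0803, adjusted p = 0.412), and at 8 months against WT it passed by a narrow margin (0.26, SE 0.0930, adjusted p = 0.0381). That call was lost under library totals, no filter and DESeq2, and without any 1 of WT replicates 2 and 3 and ST replicates 2 and 3. Mrps22, another gene of human mitochondrial cardiomyopathy, had 34.0, 38.3 and 33.5 CPM in ST hearts, against 36.8, 43.4 and 35.7 CPM in WT hearts of 6 months, with overlap (-0.13, SE 0.101, adjusted p = 0.349), and rose in ST hearts of 8 against 6 months by 0.33 (log2, adjusted p = 0.00949 by edgeR). Mrpl12, which also binds the mitochondrial RNA polymerase, had 177, 184 and 189 CPM in ST hearts of 8 months, 159, 151 and 168 CPM in ST hearts of 6 months and 125, 131 and 144 CPM in WT hearts of 6 months, 3 groups without overlap. It rose in each of the 3 later comparisons, with log2 fold changes of 0.26, 0.20 and 0.47. The first of these calls was lost under library totals and without any 1 of ST replicates 1 and 3 and WT replicates 1 and 2. The second was lost under no filter and without any 1 of ST replicate 1 of 6 months and ST replicates 2 and 3 of 8 months. The relatives of the bacterial protein bS18 had close values: at 6 months Mrps18a, Mrps18b and Mrps18c, the first pair with the promoters shown above, had log2 fold changes of 0.26, 0.31 and 0.24 with adjusted p of 0.0374, 0.00677 and 0.0768 by edgeR, so that Mrps18c did not pass. The call of Mrps18a was lost under library totals, under DESeq2 and in all fits that leave out a library except that without WT replicate 3, and the call of Mrps18b under library totals. Against WT hearts of 6 months, ST hearts of 8 months had more of all of them, with log2 fold changes of 0.42, 0.51 and 0.48. Mrps12, whose counterpart in bacteria takes part in decoding, rose at 6 months (0.31, SE 0.111, adjusted p = 0.0442), a call lost under library totals, the stricter filter, DESeq2 and limma-voom and in all fits that leave out a library except that without ST replicate 2.

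Genes that work with the mitoribosome gave calls in both directions at 6 months. At 2 months 0 of 16 mitochondrial translation factors, 0 of 27 assembly factors, 0 of 22 mitochondrial tRNA synthetases and 0 of 16 genes for transcription and upkeep of mitochondrial DNA passed, and the 13 mitochondrially encoded protein genes, listed in the 2-month table, had a median of -0.01 with 0 past the threshold. At 6 months 3 translation factors rose and 1 fell: the elongation factors Tsfm (0.51, SE 0.116, adjusted p = 0.00441), Tufm (0.29, SE 0.0722, adjusted p = 0.00795) and Gfm1 (0.25, SE 0.0684, adjusted p = 0.0131) rose and Mtrfr fell. Tsfm had 55.0, 48.9 and 57.8 CPM in ST hearts, against 31.5, 39.2 and 42.9 CPM in WT hearts. Those 3 factors carry tRNA to the ribosome, reload Tufm and move the ribosome along. The 3 are 18.8% of the translation factors, beside 19.9% of all names called higher. The 1 that fell is 6.25%, beside 20.1% called lower. Of 27 assembly factors 6 rose, among them Afg3l2 and Spg7 of the protease that matures Mrpl32, and 4 fell, among them Mettl17. Of 22 tRNA synthetases 4 rose and 5 fell, with Fars2 at 0.50 and Lars2 at -0.44. Beside 19.9% of all names called higher, the assembly factors had 22.2% and the synthetases 18.2%. Beside 20.1% called lower, the assembly factors had 14.8% and the synthetases 22.7%. Of 5 mitoribosomal proteins under other names only Dap3, of the small subunit, passed, with 59.0, 57.6 and 59.9 CPM in ST hearts, against 47.7, 50.2 and 51.6 CPM in WT hearts (0.24, SE 0.0749, adjusted p = 0.0228).

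In ST hearts of 8 against 6 months 3 of 16 translation factors rose and 0 fell, 4 of 27 assembly factors rose and 1 fell, 0 of 22 synthetases rose and 3 fell, and 3 of 16 genes of the mitochondrial DNA group rose and 1 (Polg, its polymerase) fell. The shares higher were 18.8, 14.8, 0 and 18.8% in this order, beside 19.1% of all names. The shares lower were 0, 3.70, 13.6 and 6.25%, beside 20.5% of all names. Against WT hearts of 6 months, ST hearts of 8 months had 6 of 16 translation factors higher and 0 lower, 7 of 27 assembly factors higher and 1 lower, 4 of 22 synthetases higher and 3 lower, and 3 of 16 mitochondrial DNA genes higher and 0 lower. Here the shares higher were 37.5, 25.9, 18.2 and 18.8%, beside 17.8% of all names. Those lower were 0, 3.70, 13.6 and 0%, beside 16.1% of all names. Median log2 fold changes of these lists against WT hearts were 0.09, 0.18, -0.04 and 0.06, beside 0.43 of the mitoribosomal proteins. At 6 months the 4 medians were 0.11, -0.06, 0.04 and 0.05, beside 0.15. These lists were chosen with results of the same data known, and the difference between their medians and that of the mitoribosomal proteins was not tested.

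**Figure D5:**
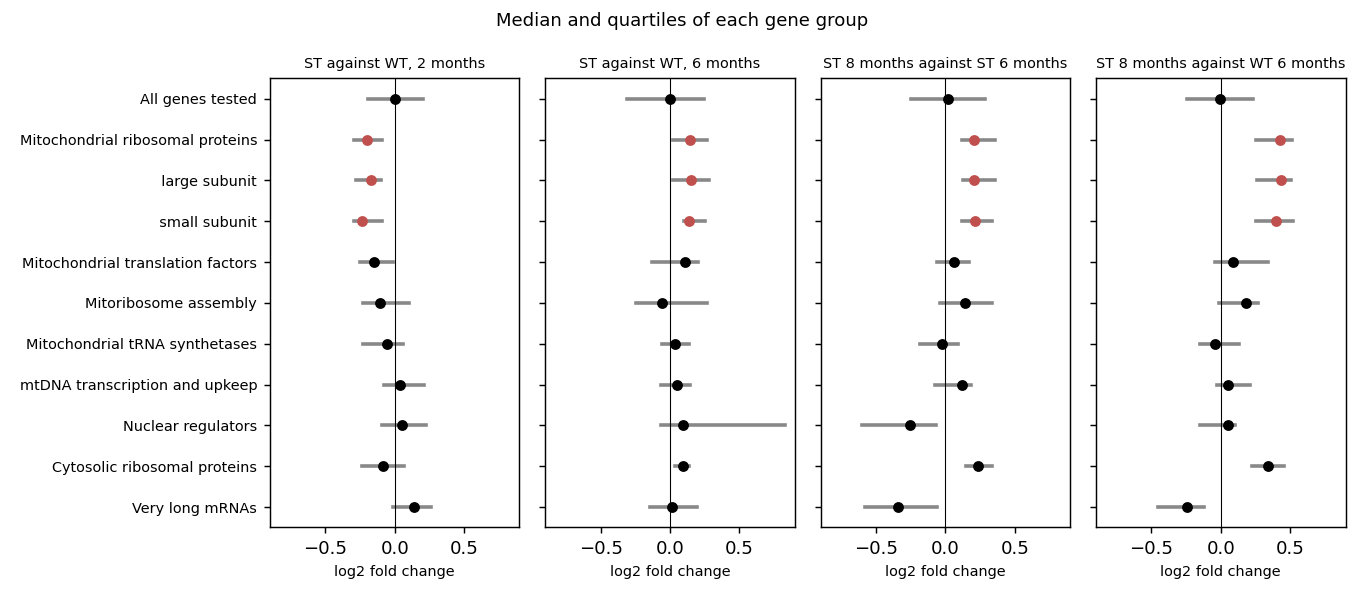
Median (point) and quartiles (bar) of the log2 fold change in each gene group, in 4 comparisons, with the mitochondrial ribosomal proteins and their subunits in red. In the 2 comparisons of 8 months the cytosolic ribosomal proteins lie to the right of 0 with the mitoribosomal ones and the very long mRNAs to the left.

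Among nuclear regulators of mitochondrial genes, Ppargc1a, the coactivator PGC-1α, rose at 2 months, with 149.8 and 143 CPM in ST hearts, against 59.5 and 58.8 CPM in WT hearts (1.31, SE 0.128, adjusted p = 1.09e-05). It rose at 6 months as well, with 231, 227 and 172 CPM in ST hearts, against 118, 127 and 111 CPM in WT hearts (0.83, SE 0.106, adjusted p = 8.95e-05), and fell in ST hearts of 8 against 6 months (-0.60, SE 0.106, adjusted p = 0.000696). Of the 13 regulators 6 rose and 2 fell at 6 months, which is 46.2% and 15.4%, beside 19.9% and 20.1% of all names. Perm1, a muscle coactivator, had 523, 570.3 and 509.9 CPM in ST hearts, against 279, 278 and 281 CPM in WT hearts. Myc, a growth regulator of ribosome genes, had 40.2, 24.0 and 47.0 CPM in ST hearts, against 3.01, 2.58 and 1.07 CPM in WT hearts. Pprc1, a relative of PGC-1α, had 42.0, 33.1 and 37.6 CPM in ST hearts, against 21.6, 19.9 and 18.3 CPM in WT hearts. All 3 were higher in every ST heart, and all 3 fell in ST hearts of 8 against 6 months, by 0.61, 2.73 and 0.83 on the log2 scale. Nrf1, the factor of the first motif above, rose at 6 months (0.35, SE 0.124, adjusted p = 0.0387), with 20.4, 19.6 and 18.3 CPM in ST hearts, against 15.6, 17.2 and 12.8 CPM in WT hearts. Gabpa, the DNA-binding part of GABP, and Tfam, which packs mitochondrial DNA and helps to transcribe it, did not pass in any of the 4 comparisons. Esrrg and Ppargc1b were the 2 regulators that fell at 6 months, by 0.53 and 0.56 on the log2 scale. The part of these regulators in the change of the mitoribosomal genes was not tested.

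Other ribosomal and length-related groups moved beside the members, and their part in the result was not tested. The cytosolic ribosomal proteins, like the mitochondrial ones mostly short mRNAs, had 0 of 66 higher and 5 lower at 2 months, 1 of 80 higher (Rpl17) and 0 lower at 6 months, 55 of 80 higher and 2 lower in ST hearts of 8 against 6 months, and 61 of 80 higher and 0 lower in ST hearts of 8 against WT hearts of 6 months. Their medians were -0.09, 0.09, 0.24 and 0.34, beside -0.20, 0.15, 0.20 and 0.43 of the mitoribosomal proteins in the same order. A list of very long mRNAs had medians of 0.14, 0.02, -0.34 and -0.25, with 32 of 56 lower in both comparisons of 8 months and 13 of 56 higher and 10 lower at 6 months. The 32 are 57.1%, beside 20.5% of all names called lower against ST hearts of 6 months and 16.1% against WT hearts. At 6 months 23.2% were higher and 17.9% lower, near the 19.9% and 20.1% of all names. The summed level of this list was 13696 to 14079 CPM in ST hearts of 8 months, 16775 to 18082 CPM in ST hearts of 6 months and 15797 to 17327 CPM in WT hearts of 6 months. At 2 months it was 128113 to 133218 CPM in ST hearts and 109527 to 115653 CPM in WT hearts. At 2 and 8 months the medians of both ribosomal lists thus had the opposite sign to that of the very long mRNAs, and at 6 months all of them were above 0.

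Cell type markers bear on the same comparisons, and in whole hearts fewer cells of a type and less RNA per cell cannot be told apart. Their counts are to be read against the shares of all names. Those were 2.70% higher and 2.10% lower at 2 months, and 19.9% and 20.1% at 6 months. In ST hearts of 8 months they were 19.1% and 20.5% against ST hearts of 6 months, and 17.8% and 16.1% against WT hearts. Cardiomyocytes hold most mitochondria of the heart. At 2 months 0 of their 11 listed markers passed, with a summed level of 170903 to 177011 CPM in ST hearts and 160177 to 167050 CPM in WT hearts, without overlap. Most single markers went the other way than this sum. Their median log2 fold change was -0.15, with 8 of the 11 below 0 and 3 above. Of 12 cardiomyocyte markers 4 rose and 1 fell at 6 months, with a summed level of 124258 to 128650 CPM in ST hearts and 120499 to 128093 CPM in WT hearts, which overlap, and 127480 to 128598 CPM in ST hearts of 8 months. In ST hearts of 8 against 6 months 5 of the 12 rose and 4 fell. Against WT hearts of 6 months 6 of the 12 rose in ST hearts of 8 months and 4 fell. Of 8 fibroblast markers 3 rose and 4 fell at 6 months, with sums of 978 to 1041 CPM in ST hearts and 1211 to 1290.2 CPM in WT hearts. In ST hearts of 8 months 4 rose and 3 fell against ST hearts of 6 months, and 1 rose and 3 fell against WT hearts of 6 months. Of 8 macrophage markers 1 rose and 1 fell at 6 months, 12.5% each way and below the shares of all names. Their sums were 134 to 187 CPM in ST hearts and 141 to 183 CPM in WT hearts. At 8 months 4 of the 8 fell in either comparison, with a sum of 105 to 119.9 CPM in ST hearts. The sums at 2 months were 143 to 182 CPM in ST hearts and 119 to 165 CPM in WT hearts. Of 8 erythroid genes 7 rose at 6 months, with sums of 735 to 816 CPM in ST hearts and 411 to 554 CPM in WT hearts. In ST hearts of 8 months 0 of the 8 passed against ST hearts of 6 months. Against WT hearts of 6 months 3 rose and 0 fell. At 2 months 2 of 4 listed erythroid genes rose, with sums of 306 to 401 CPM in ST hearts and 146 to 181 CPM in WT hearts. The 5 adipocyte markers summed to 11.0 to 27.5 CPM in ST hearts and 0.134 to 0.410 CPM in WT hearts at 6 months. Only 1 of them, Pck1, passed the filter on low counts and was tested, with a log2 fold change of 6.30. In ST hearts of 8 months the 5 summed to 0.377 to 1.06 CPM, and Pck1 fell against ST hearts of 6 months (-5.13). Of 8 endothelial markers 3 rose and 1 fell at 6 months, with sums of 1289 to 1461 CPM in ST hearts and 1047 to 1313 CPM in WT hearts. In ST hearts of 8 against WT hearts of 6 months 4 of the 8 rose and 0 fell, and the sums of 1422 to 1536 CPM in those ST hearts did not overlap those of WT hearts. Of 7 smooth muscle and pericyte markers 4 rose and 0 fell at 6 months, with a median log2 fold change of 0.74, and 3 of 6 tested rose in ST hearts of 8 against WT hearts of 6 months. Of 3 mesothelial markers tested, 2 rose and 0 fell at 2 months, and 1 rose and 2 fell at 6 months and in ST hearts of 8 against WT hearts of 6 months. The part of these lists in the change of the mitoribosomal genes was not tested.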

How the data were processed

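Bulk RNA of 13 rat hearts was deposited in 3 tables of 1 time point each. The authors deposited estimated counts (expected counts) per gene name, partly fractional and not scaled between libraries, as the deposited tables themselves show. Which tool counted the reads, and whether by strand, is not stated in the sources used here. The submitters' processing notes list the builds GRCm38 and mm10, which are mouse builds, while the gene names are those of rat, so that no coordinate of the tables was used. All 78 names match RefSeq symbols of GRCr8, which gave promoters and neighbouring genes only. RefSeq names 40 pseudogenes after members, and 17 members overlap a protein-coding gene, so that shared reads are possible.

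Expected counts were rounded. Each comparison used its own libraries, restricted to names that all its tables list. Low counts were removed with filterByExpr. In R 4.3.3, edgeR 4.0.16 fitted the quasi-likelihood model after TMM scaling; its F test is two-sided, with Benjamini-Hochberg adjustment over all names tested and a threshold of 0.05. Dividing the size of a log2 fold change by the root of F gave its SE. For CPM, TMM factors were taken over the 2-month libraries and, separately, over those of 6 and 8 months; the transgene was scaled by library total. The procedure was tested on simulated data. Alternatives were RLE size factors, library totals, no filter or a minimum of 5 CPM, DESeq2 1.42.0, limma-voom 3.58.1, a replicate block, 1 fit over all groups, removal of haemoglobin and mitochondrially encoded genes, and omission of 1 library at a time. The members, gene lists, tests and the rule for named genes (the 8 largest changes each way among members past the threshold, the extremes where none passed, the 8 interaction terms with the smallest p, a fixed set of members, up to 4 of each list, and Ppargc1a, Tfam, Nrf1 and Gabpa) were chosen with earlier results of these data known. Mrps24 at 2 months, Mrpl2 at 6 months, Mrpl10, Mrpl46, Mrps11, Mrpl51 and, at 6 months, Mettl17 were named after their values were seen. Each p-value sets a difference between groups against the spread between these hearts, with 2 or 3 hearts in a group. The floor of 3 counts covers counting error only. Mitochondrial genes were listed at 2 months alone.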

Additional observations from a re-analysis of the deposited data

Results flagged for a closer look

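The difference between ST and WT hearts was not the same at 6 and at 2 months for 21 of 75 members, by the interaction term of edgeR's test with adjusted p under 0.05, and all 21 were more positive at 6 months. The 8 with the smallest p were Mrps2, with a difference of 1.21 on the log2 scale, Mrpl17 with 0.61, Mrpl24 with 0.72, Mrpl45 with 0.68, Mrpl37 with 0.66, Mrps7 with 0.63, Mrpl40 with 0.53 and Mrpl20 with 0.66. The call of Mrpl20 was lost without WT replicate 1 of 2 months (adjusted p = 0.0795 by edgeR). Mrpl17 had 136, 125 and 129 CPM in ST hearts, against 94.9, 106 and 109 CPM in WT hearts at 6 months, and 47.9 and 48.4 CPM in ST hearts, against 57.2 and 61.0 CPM in WT hearts at 2 months. Mrpl40 had 94.1, 81.7 and 88.6 CPM in ST hearts, against 76.5, 76.7 and 73.0 CPM in WT hearts at 6 months, and 51.0 and 50.4 CPM in ST hearts, against 59.8 and 66.7 CPM in WT hearts at 2 months. In both genes ST hearts lay above WT hearts at 6 months and below them at 2 months without overlap. The 2 time points come from separate tables, and their part in the difference cannot be told apart from that of time.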

How the results depend on the processing

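The count of members lower at 2 months (0) became 1 under library totals, no filter, the stricter filter, limma-voom and the replicate block (Mrps7 each time), and 5 in 1 fit over all groups (Mrpl40, Mrpl49, Mrpl58, Mrps24 and Mrps7). Leaving out 1 library at a time gave 0 to 12, with a median of -0.24 to -0.13, and there the lone library of a group was assumed to vary like the other group. At 6 months 23 members were higher: library totals gave 9 higher and 4 lower, with a median of 0.034, DESeq2 14 higher, and leaving out 1 library 13 to 27. In ST hearts of 8 against 6 months the count lower (1) became 2 with RLE size factors and without mitochondrially encoded and haemoglobin genes (Mrps2 in addition), 0 under library totals, with a median of 0.26, 0 under DESeq2, and 0 to 1 on leaving out 1 library. Against WT hearts of 6 months the median stayed between 0.36 and 0.46 on leaving out 1 library. The interaction count (21) became 13 under library totals and 10 to 25 on leaving out 1 library. The cause of these shifts was not tested, apart from fewer samples where a library was left out. The replicate block gave 23 members higher at 6 months, 39 higher and 1 lower in ST hearts of 8 against 6 months, 64 higher in ST hearts of 8 against WT hearts of 6 months, and 20 for the interaction. The labels do not pair libraries of the same number. Their deviations correlated at 0.00 to 0.18, and not every library correlated best with its own number. No named member reversed its sign as a call. Of the calls of named members, 10 were gained and 0 lost at 2 months, 1 gained and 23 lost at 6 months, 6 gained and 9 lost in ST hearts of 8 against 6 months, 1 gained and 9 lost against WT hearts of 6 months, and 1 lost for the interaction (Mrpl20), counted over all alternatives.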

Other observations

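The spans of Mrpl46, of the large subunit, and Mrps11, of the small subunit, lie 15 bases apart in GRCr8 on opposite strands. Mrpl46 had 36.4, 30.1 and 36.9 CPM in ST hearts of 8 months, against 24.6, 24.1 and 28.8 CPM in ST hearts of 6 months. Mrps11 had 28.0, 29.4 and 31.8 CPM in ST hearts of 8 months, against 22.2, 23.9 and 19.7 CPM in ST hearts of 6 months. Both rose, without overlap of the groups, with log2 fold changes of 0.41 and 0.44. At 6 months neither passed against WT hearts, with log2 fold changes of -0.03 and 0.12.

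Members were also counted by whether their promoter held at least 1 NRF1, ETS or YY1 match. At 6 months 10 of 36 with a match and 10 of 27 without rose in ST against WT hearts, with medians of 0.14 and 0.18, beside 19.9% of all names called higher. In ST hearts of 8 against WT hearts of 6 months 31 of 36 and 19 of 27 rose, with medians of 0.43 and 0.41, beside 17.8% of all names. The difference was not tested.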
